A study of Mus musculus with 89 samples.

Results

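Enterocytes that carry the RNAs of the villus tip were picked out of a table of single cells of the mouse jejunum, and their RNA content was set against that of enterocytes of the same animals in which no RNA of the tip gene Ada was counted. A well was used if it held 200 to 7000 unique molecular identifiers (UMIs, each standing for 1 captured mRNA molecule), 150 to 1500 genes and at most 40% UMIs of mitochondrially encoded genes, and at most 2 summed UMIs of Cd3g, Cd7, Gzma, Muc2, Dclk1, Trpm5, Chga and Chgb, which mark lymphocytes, goblet, tuft and enteroendocrine cells. Of 16850 wells, 5199 met the quality limits and 3178 the marker limit as well. Villus tip wells were chosen by 2 shares of their UMIs: at least 1% from the apolipoprotein genes Apoa1, Apoa4 and Apob together and at least 0.2% from Ada. These limits gave 330 wells, with 136, 57, 26 and 111 in mice 1, 2, 3 and 4. They were compared with 1203 wells that had at least 0.3% apolipoprotein UMIs and no Ada UMI (191, 328, 309 and 375 wells), called wells without Ada. A further 583 wells had as much apolipoprotein and at least 1 Ada UMI but missed the limits of the tip, and 1062 wells had less apolipoprotein and entered no comparison.

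The animals were C57BL/6 males on regular chow, labelled 3 months old, except 3 plates of mouse 2 labelled 4 months. Both groups of wells came from the same 4 mice, with no transgene or treatment given, and whether the plates of mouse 2 come from 1 animal cannot be told. The tissue was taken apart with EDTA alone, live cells were sorted into 384-well plates, and 3′ end libraries were made with MARS-seq, a plate protocol in which each well has its own barcode. The group of a well rests on its own counts and not on a position seen under a microscope.

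Enterocytes are born in the crypt, move up the villus over a few days and are shed at its tip, and they change the genes they use on the way. The middle of the villus is known for sugar and amino acid uptake, its base for secreted antimicrobial proteins, and the tip for apolipoproteins of the fat particles (chylomicrons) and for a set of enzymes and transporters of purine nucleosides. In that set Nt5e turns AMP into adenosine at the cell surface, Slc28a2 carries purine nucleosides into the cell, and Ada turns adenosine into inosine.

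The single-cell table held 39137313 UMIs on 44 plates, between 5711585 and 13386720 per mouse. Summed without the 4 genes of the rule, the villus tip wells held 376864, 125825, 75545 and 315513 UMIs in mice 1 to 4 and the wells without Ada 601020, 842410, 1081540 and 955159. The median well had 2409, 2117, 2965 and 2453 UMIs at the tip and 2736, 2320.5, 3568 and 2033 without Ada. All 384 well barcodes recur on several plates, and no 2 of the 5199 wells held identical counts. No doublet caller was run. Wells above 5000 UMIs made up 13.9% of the tip wells and 15.0% of the wells without Ada. The limits on UMIs and markers hold for both groups, so doublets within them were not tested.

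The 4 genes that chose the wells are given as a description. In the summed tip wells Ada held 0.455, 0.500, 0.832 and 0.507% of all UMIs in mice 1 to 4, against 0.0732, 0.0637, 0.0543 and 0.0690% in the other wells with Ada. Mouse 3, with the fewest tip wells, had the highest share. Apoa4, an apolipoprotein of chylomicrons, held 1.74, 2.26, 2.36 and 1.60% of UMIs at the tip and 0.409, 0.369, 0.254 and 0.383% in the wells without Ada. Apoa1 held 1.48, 1.49, 1.46 and 1.53% and 0.609, 0.629, 0.476 and 0.965%, and Apob, the protein core of the particle, 0.333, 0.355, 0.383 and 0.361% and 0.126, 0.114, 0.0780 and 0.143%. The shares of Apoa1 and Apob hardly varied between the 4 tip sums, while those of Ada and Apoa4 did.

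Among single tip wells the Ada share had a median of 0.416% and a highest value of 3.02%, and the 10th and 90th percentiles were 0.238 and 0.975%. The lowest Ada share inside the limit was 0.2% and the highest outside it, among 1016 wells with enough apolipoprotein, 0.199%, so the limit cuts through a continuous range. For the apolipoproteins the lowest share inside was 1.11% and the highest outside, among 11 wells with enough Ada, 0.996%. At these depths the Ada limit can be met by few molecules: 27, 16, 6 and 25 tip wells of mice 1 to 4 had at most 5 Ada UMIs.

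**Figure D1:**
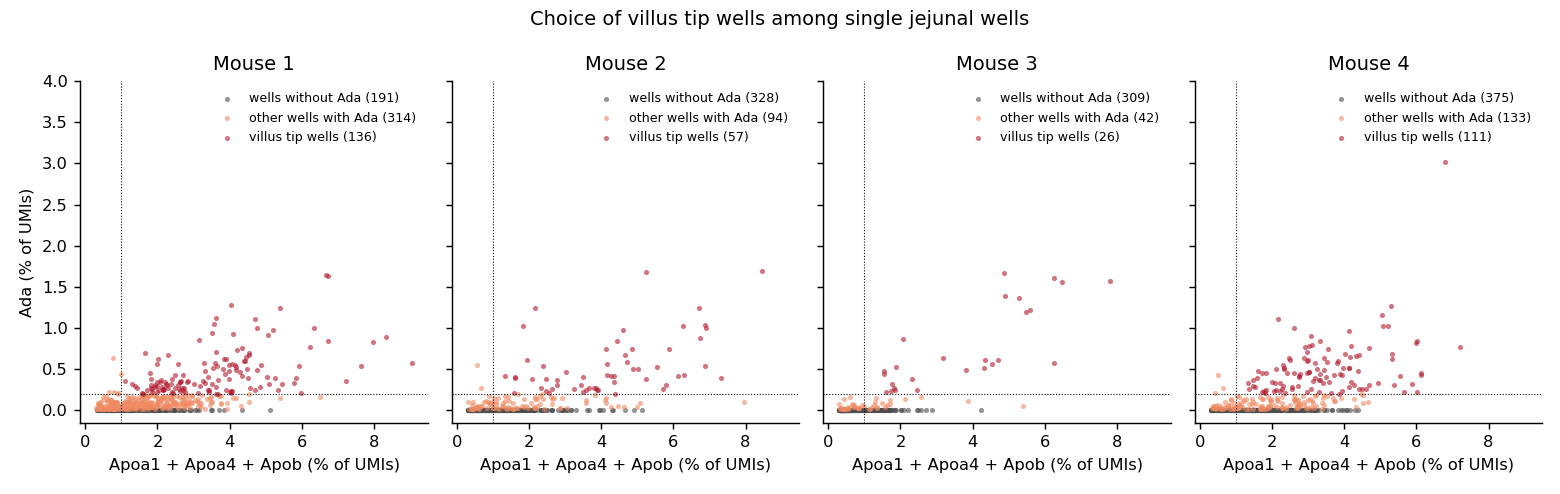
Each point is 1 well that passed the limits, placed by its apolipoprotein share (x axis, % of UMIs) and its Ada share (y axis, % of UMIs) in each mouse; dotted lines mark 1% and 0.2%. The tip wells (red) continue the cloud of the other wells with Ada (orange) upwards, and the wells without Ada lie on the x axis by the rule.

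The label was set beside Clca4a and Creb3l3, 2 tip markers that the rule did not use. Both are on the study's list of tip landmark genes together with Ada and Apoa4. Their direction here is thus not independent of how the wells were chosen. Clca4a, a member of the family of chloride channel accessory genes (chr3:144952480-144975045 on GRCm38, minus strand), stood at 1757, 3648, 4619.8 and 3017 CPM (UMIs per 1000000 UMIs of all genes but the 4 of the rule) in the tip sums of mice 1 to 4 and at 113, 84.3, 86.9 and 142 CPM in the sums without Ada. The groups did not overlap, with a log2 difference of 4.55 ± 0.33 (SE, adjusted p = 1.6e-06) by edgeR's quasi-likelihood test with Benjamini-Hochberg adjustment over 2871 genes. Creb3l3, a transcription factor of lipid genes in liver and gut, stood at 647, 1224, 781 and 932 CPM against 331, 272, 276 and 336 CPM, again with no overlap, and differed by 1.21 ± 0.29 (SE, adjusted p = 0.0062). The sums without Ada held between 272 and 336 CPM of Creb3l3, so this marker is not particular to the tip wells.

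In single wells Clca4a was counted in 296 of 330 wells (89.7%, exact binomial 95% interval 85.9 to 92.8%) at the tip and in 208 of 1203 wells (17.3%, exact binomial 95% interval 15.2 to 19.5%) without Ada, and Creb3l3 in 248 of 330 wells (75.2%, exact binomial 95% interval 70.1 to 79.7%) and 569 of 1203 wells (47.3%, exact binomial 95% interval 44.4 to 50.2%). Both were counted in 231 of 330 tip wells, 1 of them in 82 and neither in 17. The level that free RNA gives was read in 1344 wells with at least 5 summed UMIs of the lymphocyte genes Cd3g, Cd7 and Gzma, which lay in mice 2, 3 and 4 but for 1 well. There Clca4a had a UMI in 1.12% and Creb3l3 in 1.04% of wells, at a median of 880 UMIs against 2390.5 in the tip wells and 2575 in the wells without Ada. Intervals on wells cover counting error only. The neighbours Clca4b and Clca4c-ps, whose 3′ reads may be hard to tell from those of Clca4a, differed by 1.45 and 3.83 (adjusted p = 0.002 and 5.6e-06). Clca4c-ps is annotated as a pseudogene.

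Across all genes, 419 of 2871 tested genes rose in the tip wells (14.6%) and 454 fell (15.8%), at an adjusted p under 0.05 by edgeR's quasi-likelihood test on UMIs summed per mouse. Of the genes that rose, 415 were higher at the tip in each of the 4 mice, and of those that fell, 333 were lower in each. The median log2 difference of all tested genes was -0.06. The balance of rises and falls depends on the scaling: with sums scaled to total UMIs in place of edgeR's TMM factors, all differences moved up by a median of 0.22 and 456 genes rose and 185 fell, with no called gene changing its sign. CPM values below carry no TMM factor, so a ratio of 2 CPM values differs from the fitted difference. The animal is the replicate, and the count changed with the mice used. Without mouse 2, 371 of 2851 genes passed (208 higher and 163 lower), and without mouse 3, 523 of 2871 (293 and 230). Without mouse 4, 429 of 2796 passed (246 and 183), and without mouse 1, 1278 of 3588 (585 and 693). With the animal as a block, 1127 genes passed (529 higher and 598 lower), which is within 1.5 times the count without it.

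Of 143 named genes, 1 lost its call without mouse 1, 27 without mouse 2, 17 without mouse 3 and 25 without mouse 4. The marker Creb3l3 was one of them, with adjusted p = 0.084 without mouse 2 and 0.058 without mouse 4 (edgeR). Also lost without a mouse were Slc6a20a, Entpd5, Anpep, Slc2a5, Abcg8, Apoc2, Apobec1, Klf4, Hnf4a, Vdr, Skil, Bmpr2, Cyp3a11, Cyp3a13, H2-K1, H2-D1, Fth1, Cldn15, Krt19, Fau, Rpl41 and Atp5b, and their values below are to be read with that limit. With sums scaled to total UMIs, Entpd5, Abcg8, Fth1, Cldn15, Krt19, Fau, Rpl41 and Atp5b lost theirs.

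The largest rise among the genes described here was that of Nt5e. It (chr9:88327197-88372092 on GRCm38, plus strand) stood at 162, 334, 159 and 491 CPM in the tip sums of mice 1 to 4 and at 0, 2.37, 0 and 2.09 CPM in the sums without Ada, where 0, 2, 0 and 2 UMIs were counted. The log2 difference was 7.53 ± 0.60 (SE, adjusted p = 1.8e-06), and as the sums without Ada hold so few molecules its size is loosely fixed. The transporter Slc28a2 (chr2:122426477-122461137, plus strand) stood at 775, 1478, 1694 and 1800.2 CPM against 34.9, 16.6, 24.0 and 11.5 CPM and differed by 5.64 ± 0.47 (SE, adjusted p = 2.4e-06). Its neighbour Gm14085 (chr2:122484941-122528040, plus strand), now named Slc28a2b, stood at 379, 604, 781 and 1014 against 3.33, 10.7, 15.7 and 4.19 CPM and differed by 5.97 ± 0.45 (SE, adjusted p = 1.6e-06). Reads of the related pair may be shared between them. None of the 3 genes overlapped between the groups in any mouse, and the tip sum of mouse 1 was the lowest for Slc28a2 and Gm14085.

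The purine list was higher at the tip in its summed level, while its median lay near 0. Summed, its genes without Ada held 3537, 4117, 5268 and 4681 CPM at the tip and 1501, 1566, 1512 and 1759 CPM in the wells without Ada, higher in 4 of 4 mice, and 36.4% of its tested genes rose beside 14.6% of all. Of its 25 genes, Ada was used by the rule, 11 were counted often enough to be tested, 4 rose and 1 fell, with a median log2 difference of 0.05 beside -0.06 over all tested genes. Beside Nt5e and Slc28a2, the surface enzymes Enpp3 and Entpd8, which cleave nucleotides outside the cell, rose by 2.44 and 1.78 (adjusted p = 2.8e-04 and 6.1e-04). Enpp3 stood at 769.5, 922, 1324 and 1021 CPM at the tip and 191, 78.3, 113 and 185 CPM without Ada. Ada and 8 further enzymes of purines inside the cell, among them Adk and Hprt, were not tested. Among those tested, guanine deaminase Gda differed by -0.45, xanthine dehydrogenase Xdh by 0.05 and purine nucleoside phosphorylase Pnp by 0.51 (adjusted p = 0.25, 0.94 and 0.16). Entpd5, a nucleotidase of the endoplasmic reticulum, fell by 1.42 (adjusted p = 0.023). Xdh stood at 507, 270.2, 463 and 254 CPM at the tip and 341, 289.6, 253 and 282 CPM without Ada, so the 2 groups overlapped.

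The study names 30 landmark genes of the villus tip, picked from an earlier map of enterocytes along the villus, of which 28 remain without Ada and Apoa4. As Ada and Apoa4 are on that list, its direction here is not independent of how the wells were chosen. All 28 were tested, 26 rose and none fell (edgeR, adjusted p under 0.05), 92.9% higher beside 14.6% of all tested genes, with a median log2 difference of 2.56. The landmarks that did not pass were Malat1, a nuclear long RNA, at 1.02 (adjusted p = 0.058, and 1.23 and adjusted p = 3.7e-06 with the mouse as a block), and Adh6a, an alcohol dehydrogenase, at 0.11 (adjusted p = 0.81). Among the others, Krt20, a keratin of mature gut epithelium, stood at 2470.4, 4594, 4554 and 3857 CPM at the tip and 900.1, 683, 676 and 927 CPM without Ada, a log2 difference of 1.89 ± 0.28 (SE, adjusted p = 3.1e-04). Muc3, a mucin of the brush border, rose by 2.81 and Ifrd1, a gene of the stress response, by 4.26 (adjusted p = 3.5e-04 and 3.1e-06). Of the 10 mid-villus landmarks, 9 were tested, 7 fell and none rose (77.8%, beside 15.8% of all tested genes), with a median of -1.28. With sums scaled to total UMIs, 4 of them fell, beside 185 of all 2871 tested genes.

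The 12 largest rises among genes with at least 50 CPM and the same direction in every mouse hold the landmarks Nt5e, Slc28a2, Gprc5a and 2010109I03Rik, and Gm14085. Gprc5a, an orphan receptor, stood at 117, 397, 252 and 266 CPM at the tip and 1.66, 0, 0.925 and 4.19 CPM without Ada. 2010109I03Rik, now named Ly6m and a member of the Ly6 family, stood at 1271, 3059.8, 2211 and 2250.3 against 23.3, 36.8, 7.40 and 14.7 CPM and was counted in 69.7% of tip wells. They differed by 6.77 and 6.41 on the log2 scale (adjusted p = 1.6e-06 and 1.6e-06). As Gprc5a had at most 4.19 CPM without Ada, the size of its rise is loosely fixed. Gm14085 and the genes that follow are not on the landmark list. Acsl3, which activates long-chain fatty acids, stood at 101, 302, 185 and 193 CPM against 3.33, 8.31, 1.85 and 3.14 CPM and differed by 5.21 ± 0.45 (SE, adjusted p = 3.2e-06). Cldn4, a tight junction protein, stood at 69.0, 310.0, 106 and 203 against 3.33, 13.1, 0 and 1.05 CPM and differed by 5.02 ± 0.70 (SE, adjusted p = 2.0e-04). S100a6, a calcium-binding protein, stood at 55.7, 326, 225 and 431 against 1.66, 14.2, 7.40 and 7.33 CPM and differed by 4.72 ± 0.55 (SE, adjusted p = 4.0e-05). In these 3 genes mouse 1 had the lowest tip sum. The tubulin Tubb2a, the nuclear envelope protein Tmem43 and Gas2l3, which links actin to microtubules, rose by 4.98, 4.74 and 4.71, each at under 160 CPM in every tip sum.

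Below these came 2 genes picked out after their values were seen. The receptor Egfr stood at 61.0, 71.5, 79.4 and 60.2 CPM in the tip sums and 3.33, 2.37, 0 and 3.14 CPM in the sums without Ada, and differed by 4.69 ± 0.51 (SE, adjusted p = 2.3e-05). Lama3, a chain of a laminin of the basement membrane, stood at 133, 366, 172 and 231 CPM at the tip against at most 23.0 CPM without Ada. It differed by 4.20 (adjusted p = 1.7e-05).

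**Figure D2:**
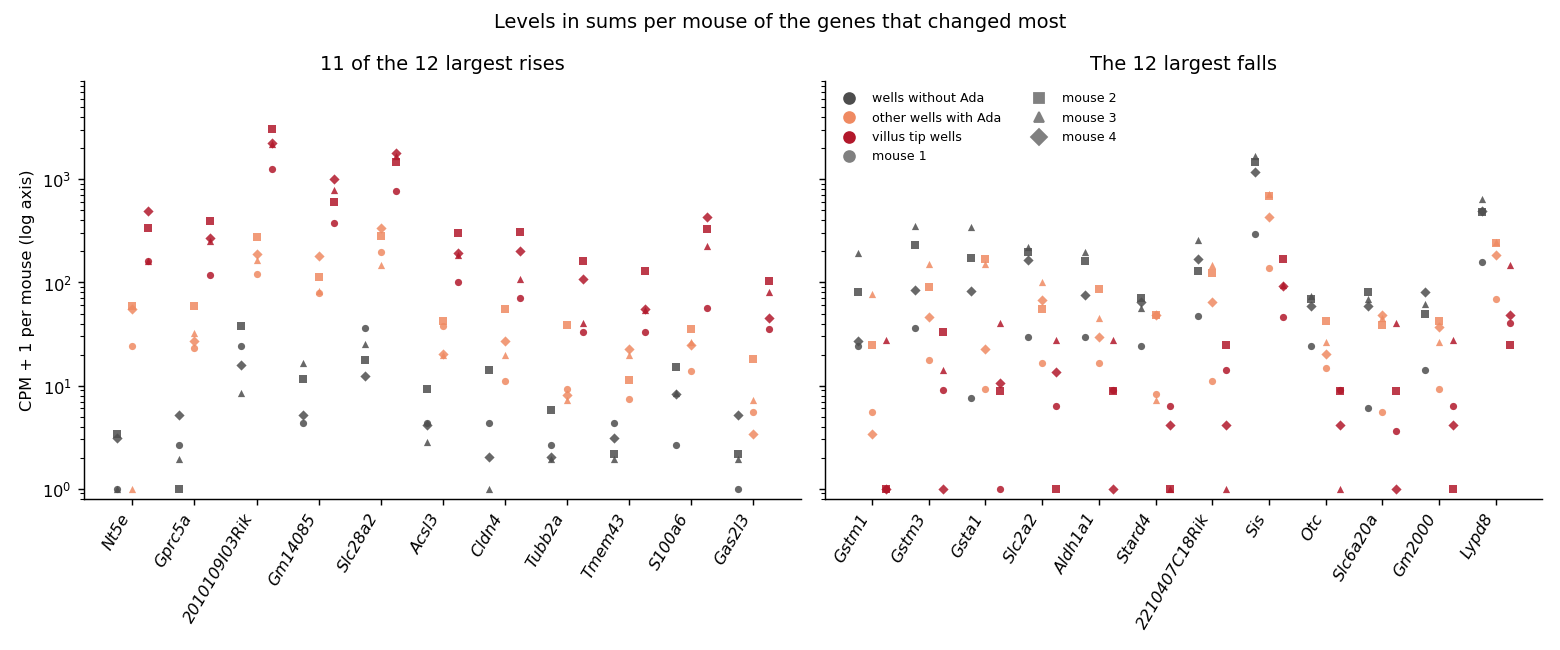
CPM + 1 on a log axis in the sums of each mouse (symbols) for 11 of the 12 largest rises and for the 12 largest falls, in wells without Ada (grey), other wells with Ada (orange) and villus tip wells (red). For all 11 rises shown the red symbols lie above all grey ones; among the falls Gstm1, Gsta1, Slc6a20a and Gm2000 overlap.

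The RefSeq promoter windows of the tip genes (GRCm38.p6, 250 bases before to 50 bases after the start) were searched on both strands for 5 motifs, since genes that rose together can be compared by their sequence. 23 of 30 named genes had a window. The AP-1 motif (TGA and TCA with any base between them) was present in 10.5% of the 305 genes that rose and have a window, 8.09% of the 309 that fell, 7.74% of the 2068 tested genes and 8.97% of all 27025 genes with a window. In the same order, GGGNGTGG, a KLF motif, was present in 31.8, 22.0, 28.5 and 19.7%. TGACGTCA (CRE) was present in 2.30, 3.56, 3.92 and 2.03%, and CAAAGTCCA (HNF4) in 1.31, 2.27, 1.26 and 0.555%. AGATAAG, read by zinc finger factors of gut epithelium such as Gata4, was present in 2.62, 1.62, 2.32 and 3.50%. These are matches of letters and were not tested as sites. The windows of Nt5e, Slc28a2 and Ada held none of the 5. Shown are the windows of the 2 rises above that held a motif, Cldn4 (chr5:134946885-134947184, minus strand, AP-1 letters) and Tubb2a (chr13:34077959-34078258, minus strand, CRE letters), and of the marker Creb3l3 (chr10:81098823-81099122, minus strand, AP-1 letters, the one of its 2 windows with a motif), 5′ to 3′ on the gene's strand with the motif in capitals.

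Cldn4: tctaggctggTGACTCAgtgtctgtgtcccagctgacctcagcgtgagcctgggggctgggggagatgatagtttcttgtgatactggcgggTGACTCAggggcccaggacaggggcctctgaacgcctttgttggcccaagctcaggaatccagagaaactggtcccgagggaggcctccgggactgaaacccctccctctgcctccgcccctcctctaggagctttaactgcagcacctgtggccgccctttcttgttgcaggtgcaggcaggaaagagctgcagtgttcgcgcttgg
Tubb2a: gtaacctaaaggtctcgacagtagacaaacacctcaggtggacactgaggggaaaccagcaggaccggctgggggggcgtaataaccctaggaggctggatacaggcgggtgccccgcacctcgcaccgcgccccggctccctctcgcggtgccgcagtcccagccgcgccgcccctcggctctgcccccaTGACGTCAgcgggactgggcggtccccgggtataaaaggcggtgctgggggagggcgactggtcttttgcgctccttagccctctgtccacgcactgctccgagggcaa
Creb3l3: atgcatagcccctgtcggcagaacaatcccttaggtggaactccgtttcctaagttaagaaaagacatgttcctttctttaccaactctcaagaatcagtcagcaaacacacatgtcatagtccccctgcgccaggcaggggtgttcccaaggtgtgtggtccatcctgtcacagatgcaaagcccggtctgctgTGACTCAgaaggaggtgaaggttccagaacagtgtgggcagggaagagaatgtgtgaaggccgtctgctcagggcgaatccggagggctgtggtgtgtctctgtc

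Sugar handling went down. Of 11 tested genes of the list, 8 fell and none rose (72.7% lower, beside 15.8% of all tested genes), with a median log2 difference of -1.70. Sis, the sucrase-isomaltase of the brush border (chr3:72888557-72967863 on GRCm38, minus strand), stood at 45.1, 167, 92.7 and 91.9 CPM in the tip sums and 291, 1473, 1688 and 1173 CPM in the sums without Ada, and differed by -3.83 ± 0.44 (SE, adjusted p = 4.0e-05). The basolateral hexose carrier Slc2a2 stood at 5.31, 0, 26.5 and 12.7 against 28.3, 195, 221 and 165 CPM and differed by -4.16 ± 0.63 (SE, adjusted p = 3.3e-04). Neither gene overlapped between the groups. The fructose carrier Slc2a5 fell by 2.77 and the sodium-glucose carrier Slc5a1 by 1.60 (adjusted p = 0.0078 and 0.0019). Slc5a1 stood at 364, 437, 887 and 276 CPM at the tip and 569, 1279.7, 1531 and 1384 CPM without Ada, and its groups overlapped. In mouse 1 the whole list was already low without Ada: its summed level was 2452, 3195, 4792 and 2380.2 CPM at the tip and 2692, 6389, 6903 and 6757 CPM without Ada in mice 1 to 4.

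Amino acid and peptide genes fell in part. Of 19 tested, 9 fell and 10 did not pass, with 47.4% lower beside 15.8% of all tested genes and a median of -0.87. The proline carrier Slc6a20a fell by 3.23, the peptidase Enpep by 2.67 and the amino acid exporter Slc43a2 by 2.06 (adjusted p = 0.011, 5.3e-04 and 0.0011). Slc6a20a stood at 2.65, 7.95, 39.7 and 0 CPM at the tip and 4.99, 79.5, 68.4 and 58.6 CPM without Ada, with overlap through mouse 1. The carrier of neutral amino acids Slc6a19 differed by 0.33 (adjusted p = 0.37). Peptidase Anpep fell by 1.31 (adjusted p = 0.0066), although it was higher at the tip in mouse 1 by CPM. Otc, a urea cycle enzyme with a place in citrulline output of the gut, was among the 12 largest falls, at 7.96, 7.95, 0 and 3.17 CPM against 23.3, 67.7, 73.0 and 58.6 CPM and a log2 difference of -3.43 ± 0.53 (SE, adjusted p = 4.0e-04).

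Detoxifying enzymes gave 4 of the 12 largest falls when the retinaldehyde dehydrogenase Aldh1a1 is counted with the glutathione transferases. Gstm1 stood at 0, 0, 26.5 and 0 CPM at the tip and 23.3, 79.5, 194 and 26.2 CPM without Ada, Gstm3 at 7.96, 31.8, 13.2 and 0 and 34.9, 230.3, 351 and 83.8 CPM, and Gsta1 at 0, 7.95, 39.7 and 9.51 and 6.66, 172, 347 and 81.7 CPM. They differed by -5.17, -4.33 and -4.30 (adjusted p = 0.0037, 0.0014 and 0.0059). No UMI of Gstm1 was counted in the tip sums of mice 1, 2 and 4, so the size of its fall is loosely fixed. Reads of these related genes may be shared. Mouse 1 had the lowest level without Ada in each, and the single tip sum with Gstm1 was that of mouse 3. Aldh1a1 stood at 7.96, 7.95, 26.5 and 0 against 28.3, 161, 195 and 74.3 CPM and differed by -4.15 ± 0.73 (SE, adjusted p = 9.4e-04). Over the list, 10 of 26 tested genes fell and 2 rose, 38.5 and 7.69% beside 15.8 and 14.6% of all tested genes. The cytochromes Cyp3a11 and Cyp3a13 rose by 1.01 and 0.92 (adjusted p = 0.025 and 0.015). Cyp3a25, of the same family, fell by 2.26 (adjusted p = 0.005). Other large falls lie outside the list: Stard4, which carries cholesterol, at -4.06 and 2210407C18Rik at -3.98 (adjusted p = 2.0e-04 and 2.8e-04).

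Antimicrobial genes of the villus base were low at the tip. Of 8 tested genes 7 fell and none rose (87.5% lower, beside 15.8% of all tested genes), with a median of -2.04. Lypd8, a secreted protein that binds flagella, stood at 39.8, 23.8, 146 and 47.5 CPM at the tip and 158, 479.6, 649 and 493 CPM without Ada and differed by -3.21 ± 0.43 (SE, adjusted p = 1.5e-04). The lectin Reg3b stood at 486, 588, 1389.9 and 1173 against 1564, 2212, 2454 and 4850.5 CPM and differed by -1.88 ± 0.32 (SE, adjusted p = 8.1e-04). Pigr, the receptor that carries IgA across the epithelium, stood at 841, 302, 874 and 878 against 1641, 2138, 2319.8 and 2925 CPM and differed by -1.87 ± 0.34 (SE, adjusted p = 0.0011). None of the 3 overlapped between groups. Lgals4, a galectin, differed by -0.18 (adjusted p = 0.6). In 3 of 4 mice Lgals4 was higher at the tip by CPM.

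Chylomicron genes are carriers, enzymes and droplet proteins of fat absorption. Beside the 3 apolipoproteins of the rule, 27 genes of the list were tested, of which 9 rose and 4 fell (33.3 and 14.8%, beside 14.6 and 15.8% of all tested genes), with a median of 0.03. Against wells without Ada that held at least 1% apolipoprotein, 7 rose and 6 fell of 27, with a median of -0.17. Without mouse 2, 5 rose and 2 fell, and without mouse 4, 5 and 1. Over all tested genes, 330 of 2017 rose and 309 fell against wells with at least 1% apolipoprotein. The counts were 208 and 163 of 2851 without mouse 2, and 246 and 183 of 2796 without mouse 4. Apolipoproteins that the rule did not use rose: Apoc3 stood at 1926, 2178, 2528 and 2038 CPM at the tip and 547, 709, 400.4 and 949 CPM without Ada and differed by 1.45 ± 0.26 (SE, adjusted p = 0.0011), and Apoc2 differed by 0.90 ± 0.28 (SE, adjusted p = 0.024). Cidec, a lipid droplet protein, Dgat2, which makes triglyceride, and Apobec1, which edits the Apob message, rose by 2.18, 1.60 and 1.19 (adjusted p = 2.0e-04, 4.7e-04 and 0.026). Mttp, which loads lipid onto Apob, differed by -0.43 (adjusted p = 0.21). The fatty acid binding protein Fabp1 stood at 427, 619.9, 675 and 428 CPM at the tip and 898, 2341, 2754 and 1564 CPM without Ada and differed by -2.10 ± 0.30 (SE, adjusted p = 2.2e-04), while Fabp2 differed by -0.34 (adjusted p = 0.36). The sterol exporter Abcg8 fell by 1.30 (adjusted p = 0.0082).

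Genes of cell contact and cytoskeleton rose in number: 23 of 32 tested rose (71.9% higher, beside 14.6% of all tested genes) and 1 fell, with a median of 1.31. Cldn7, a claudin, stood at 945, 1892, 1324 and 1537 CPM at the tip and 324, 442, 267 and 596 CPM without Ada and differed by 1.52 ± 0.27 (SE, adjusted p = 0.0011). Lgals3, a galectin, differed by 1.89 ± 0.29 (SE, adjusted p = 3.5e-04) and Anxa2, which binds membranes, by 1.44 ± 0.26 (SE, adjusted p = 0.0011). S100a11, a calcium-binding protein, Sfn, an epithelial scaffold protein, and Cldn23 rose by 3.74, 3.20 and 2.53 (adjusted p = 3.9e-05, 6.5e-04 and 0.0013). Cldn15, a claudin that forms sodium pores, fell by 0.85 (adjusted p = 0.044). Of 25 genes of enterocyte identity and brush border, 11 rose and 2 fell, 44 and 8% beside 14.6 and 15.8% of all tested genes. Krt8 stood at 1470.0, 3274, 2925 and 3436 CPM against 409, 575, 567 and 779 CPM and Epcam, by which many plates were sorted, at 1767, 2543, 2568 and 2519.7 against 592, 639.8, 522 and 850.1 CPM. They differed by 1.95 and 1.53 (adjusted p = 1.2e-04 and 4.6e-04). Alpi, the alkaline phosphatase of the brush border, rose by 1.61, and Krt19 and the galectin Lgals2 fell by 2.11 and 3.08 (adjusted p = 3.2e-04, 0.029 and 8.8e-05). Actb had 5179.6, 8432, 8035 and 10874 CPM at the tip and 2943, 4852, 5379 and 5862 CPM without Ada and did not pass (adjusted p = 0.15, and 0.097 with the mouse as a block).

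Immediate early and stress genes rose in 12 of 21 tested cases (57.1%, beside 14.6% of all tested genes) and fell in 1, with a median of 1.40. Atf3, a stress-induced transcription factor and a tip landmark, rose by 4.05. Klf6 stood at 387, 858, 662 and 504 CPM at the tip and 91.5, 119, 74.9 and 140.3 CPM without Ada and differed by 2.18 ± 0.28 (SE, adjusted p = 9.2e-05). Jun stood at 334, 596, 225 and 384 against 86.5, 62.9, 45.3 and 98.4 CPM and differed by 2.10 ± 0.37 (SE, adjusted p = 9.4e-04). Klf4, a factor of differentiated epithelium, stood at 658, 1097, 847 and 723 against 283, 174, 110.0 and 202 CPM and differed by 1.70 ± 0.37 (SE, adjusted p = 0.0035). None of the 3 overlapped. The chaperone Hspa8 fell by 1.52 (adjusted p = 0.0057).

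Of 18 tested transcription factors of enterocytes 7 rose and 4 fell (38.9 and 22.2%, beside 14.6 and 15.8% of all tested genes). Without mouse 2, 4 rose, beside 208 of all 2851 tested genes. Prdm1, a transcriptional repressor, rose by 4.19, Foxo3 by 2.18 and Elf3 by 1.65 (adjusted p = 3.4e-05, 0.0015 and 0.0021). The nuclear receptors of the HNF4 pair went apart: Hnf4a stood at 247, 374, 331 and 361 CPM at the tip and 133, 108, 117 and 140.3 CPM without Ada and differed by 1.06 ± 0.27 (SE, adjusted p = 0.0098), while Hnf4g differed by -2.24 (adjusted p = 4.7e-04). Maf, Klf5 and the vitamin D receptor Vdr fell by 3.03, 1.80 and 1.45 (adjusted p = 2.0e-05, 0.0013 and 0.0041). In the BMP and TGF beta list, which had 5 tested genes, the receptor Bmpr2 and the regulator Skil rose by 1.46 and 1.15 (adjusted p = 0.021 and 0.033), and the BMP target Id1 differed by -0.20 (adjusted p = 0.68).

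Of 17 tested interferon genes 3 rose, Apol9a, Apol9b and Oasl1, and none fell (17.6% higher, near the 14.6% of all tested genes), with a median of 0.52. In pairs of cells, described below, 7 of 17 rose and 0 fell, beside 15.3% of all tested genes higher, with a median of 1.09. Apol9a and Apol9b are near-identical tip landmarks whose reads cannot be told apart with certainty. Oasl1 stood at 305, 270.2, 304 and 136 CPM at the tip and 63.2, 20.2, 26.8 and 22.0 CPM without Ada and differed by 2.59 ± 0.50 (SE, adjusted p = 0.0016), and the regulator Irf7 differed by 0.32 (adjusted p = 0.6). In antigen presentation 2 of 16 rose and 1 fell, 12.5 and 6.25% beside 14.6 and 15.8% of all tested genes, and 3 rose and 3 fell with the mouse as a block. The class I genes H2-K1 and H2-D1 rose by 0.90 and 1.05 (adjusted p = 0.029 and 0.013), while the class II chain Cd74 differed by 0.20 (adjusted p = 0.79). Iron genes gave 1 fall among 7 (14.3%, beside 15.8% of all tested genes), and 2 rises and 1 fall with the mouse as a block. The fall was that of the ferritin chain Fth1 at -1.16 (adjusted p = 0.046), while the other chain, Ftl1, differed by 0.57 (adjusted p = 0.17, and 0.031 with the mouse as a block).

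In the fit of all 4 mice with TMM factors, ribosomal protein genes gave the most falls of any list by number. Of 75 tested, 58 fell and none rose (77.3% lower, beside 15.8% of all tested genes), with a median log2 difference of -1.68. Their summed level was 1682, 3139, 3415 and 3341 CPM in the tip sums of mice 1 to 4 and 1509, 6961, 8673 and 10558.5 CPM in the sums without Ada, so that mouse 1 was higher at the tip and the other 3 lower. The count rests on the scaling and on the mice. With sums scaled to total UMIs 12 of 75 fell, beside 185 of all 2871 tested genes. Against wells with at least 1% apolipoprotein 15 of 53 fell, beside 309 of all 2017. Without mouse 2, 3 or 4, 10, 17 and 10 fell, beside 163 of all 2851, 230 of all 2871 and 183 of all 2796. In none of these fits did a ribosomal protein gene rise, and the list medians were -1.73 to -0.99. Fau and Rpl41 fell by 0.89 and 0.95 (adjusted p = 0.014 and 0.03), and Rpl28 differed by -0.13 (adjusted p = 0.8). Gm2000, among the 12 largest falls at -3.22 (adjusted p = 0.0019), is typed as protein coding in GENCODE M21 and as a pseudogene in RefSeq.

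Nuclear encoded subunits of the respiratory chain fell in 52 of 71 cases and rose in none (73.2% lower, beside 15.8% of all tested genes), with a median of -1.31. With sums scaled to total UMIs 23 fell, beside 185 of all 2871 tested genes. Atp5b, of the ATP synthase, stood at 324, 525, 424 and 428 CPM at the tip and 304, 747, 749.9 and 774 CPM without Ada and differed by -0.84 ± 0.25 (SE, adjusted p = 0.021). Mitochondrially encoded transcripts gave 4 falls among 15 (26.7%, beside 15.8% of all tested genes), with a median of -0.57. With the mouse as a block 8 fell, and 7 without mouse 1, beside 598 of 2871 and 693 of 3588 of all tested genes. Without mouse 2, 3 or 4 the count was 0 by edgeR each time, while 3, 3 and 8 of these transcripts were lower at an unadjusted p under 0.05. The mitochondrial share of a well had medians of 29.9, 29.0, 28.5 and 31.7% of UMIs in the tip wells of mice 1 to 4 and 33.9, 32.6, 34.4 and 32.2% in the wells without Ada. The tip was lower in 4 of 4 mice without overlap, by a mean of 3.51 percentage points. As wells above 40% were left out of both groups, this is a description. At most 30% mitochondrial UMIs in a well left 22 of 26 ribosomal protein genes and 45 of 53 respiratory chain genes lower, a limit tried after the data were seen. In that fit 235 of all 1149 tested genes were lower, and fewer genes of both lists could be tested. Genes per well at 500 UMIs, to which each well was thinned, had medians of 142.5, 168, 177 and 157 at the tip and 101, 138, 140 and 162 without Ada, a mean difference of 25.9 genes that was higher in 3 of 4 mice, likewise a description, as the limits on wells bound the number of genes. Thinning left out 5 tip wells and 27 wells without Ada, and unthinned wells had medians of 495 and 500.5 genes over all mice. The part of the mitochondrial share in these falls was not tested.

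Counts of calls in these lists moved with single mice and with the scaling, as did those over all tested genes. Over all, 208 of 2851 rose and 163 fell without mouse 2, and 246 of 2796 rose and 183 fell without mouse 4. Without mouse 3, 293 of 2871 rose and 230 fell, and without mouse 1, 585 of 3588 rose and 693 fell. Scaled to total UMIs, 456 of 2871 rose and 185 fell. Without mouse 2, 14 of 32 cell contact genes and 23 of 28 tip landmarks rose, 5 of 11 sugar genes fell and 4 of 19 amino acid genes fell. The mid-villus landmarks gave 4 falls among 9 without mouse 2 and 4 without mouse 4. Interferon genes gave 5 rises without mouse 1. Without mouse 4, 4 of 18 amino acid genes fell and 7 of 25 brush border genes rose. For the respiratory chain 23, 32 and 21 genes fell without mouse 2, 3 or 4. With sums scaled to total UMIs, 27 tip landmarks, 23 cell contact genes and 12 immediate early genes rose, and 6 sugar, 5 amino acid and 6 antimicrobial genes fell. Some list medians near 0 changed sign in these fits: the purine list without mouse 1 or 3 (-0.11 and -0.07), the chylomicron list without mouse 3 (-0.02), the transcription factors without mouse 1 (-0.04), the iron list without mouse 4 (-0.12), and antigen presentation without mouse 2 (0.03), without mouse 1 (0.000993) and with total UMIs (0.21).

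**Figure D3:**
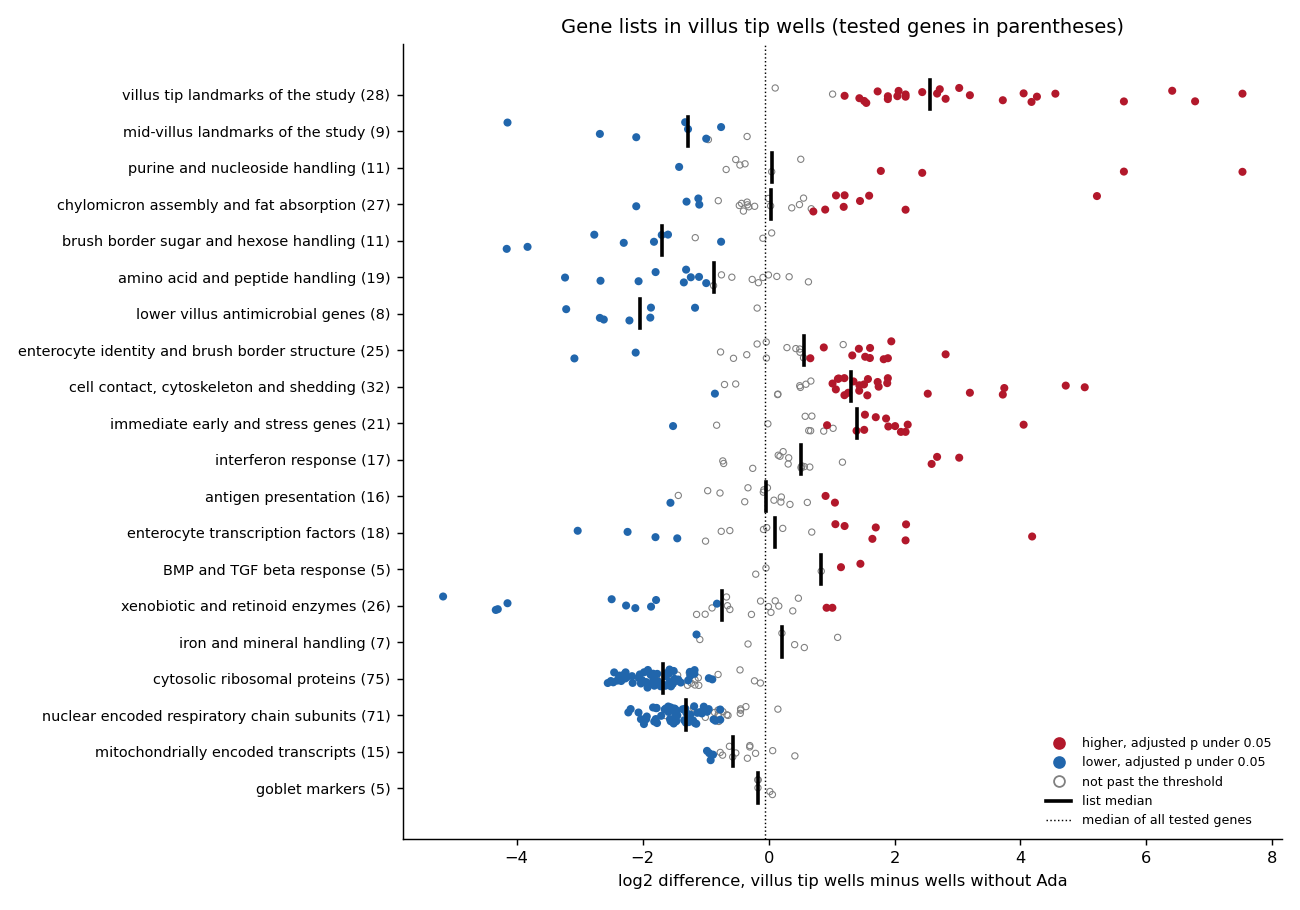
Log2 difference (x axis, villus tip wells minus wells without Ada) of each tested gene in the gene lists with at least 5 tested genes, with list medians as bars and the median of all tested genes as a dotted line. Tip landmarks (median 2.56), cell contact (1.31) and immediate early genes (1.40) lie to the right, and antimicrobial (-2.04), sugar (-1.70) and ribosomal protein genes (-1.68) to the left.

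Markers of other cell types gave no call. Of 5 goblet, 1 enteroendocrine, 2 Paneth and 3 immune markers tested none passed (edgeR). Of these, Muc2 and Gzma are among the 8 markers held to at most 2 UMIs in every well, which limits how far they can differ. No tuft, stem, blood or stroma marker was counted often enough to be tested. Summed, the goblet markers held 1000.4, 827, 252 and 206 CPM at the tip and 619, 1053, 336 and 199 CPM without Ada, and the immune markers 7.96, 15.9, 649 and 320.1 and 8.32, 34.4, 423 and 308 CPM, with high values in mice 3 and 4 in both groups. The tuft, enteroendocrine and Paneth lists held at most 247 CPM in any sum, and the stem and the blood and stroma lists at most 55.8 CPM.

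Tip wells also differed among themselves. Per well, the 28 landmarks that the rule did not use held medians of 1.92, 3.51, 2.94 and 2.70% of UMIs in mice 1 to 4, against 1.04, 1.16, 0.834 and 1.03% in the other wells with Ada and 0.716, 0.514, 0.434 and 0.548% in the wells without Ada. All 330 tip wells lay above the median of the wells without Ada of their own mouse. Single genes were less even: Nt5e was counted in 18.4, 28.1, 38.5 and 47.7% of the tip wells of mice 1 to 4 and Slc28a2 in 61.8, 73.7, 84.6 and 77.5%, both least often in mouse 1, while Clca4a was counted in 86.8, 93.0, 100 and 89.2%. In the wells with lymphocyte genes Nt5e had a UMI in 7.59% and Slc28a2 in 8.33%, more often than in the wells without Ada (0.333% and 2.91%), at a lower median depth. Clca4a had a UMI in 1.12% of these lymphocyte wells. Whether their Nt5e and Slc28a2 UMIs are free RNA or RNA of the sorted cells was not tested.

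Per well, the median shares of sugar, ribosomal protein and respiratory chain genes were lower at the tip in mice 2, 3 and 4 and not in mouse 1. The 14 sugar handling genes held medians of 0.228, 0.282, 0.295 and 0.206% of UMIs per tip well in mice 1 to 4 and 0.215, 0.535, 0.583 and 0.599% per well without Ada. The 82 ribosomal protein genes held 0.150, 0.261, 0.345 and 0.305% and 0.114, 0.418, 0.524 and 0.538%, and the respiratory chain genes 0.436, 0.533, 0.504 and 0.420% and 0.340, 0.884, 0.928 and 0.964%. The upper end of the range lay apart in each mouse: in wells without Ada the 90th percentile of the ribosomal protein share was 0.408, 1.78, 1.99 and 3.59% against 0.308, 0.569, 0.537 and 0.590% at the tip.

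**Figure D4:**
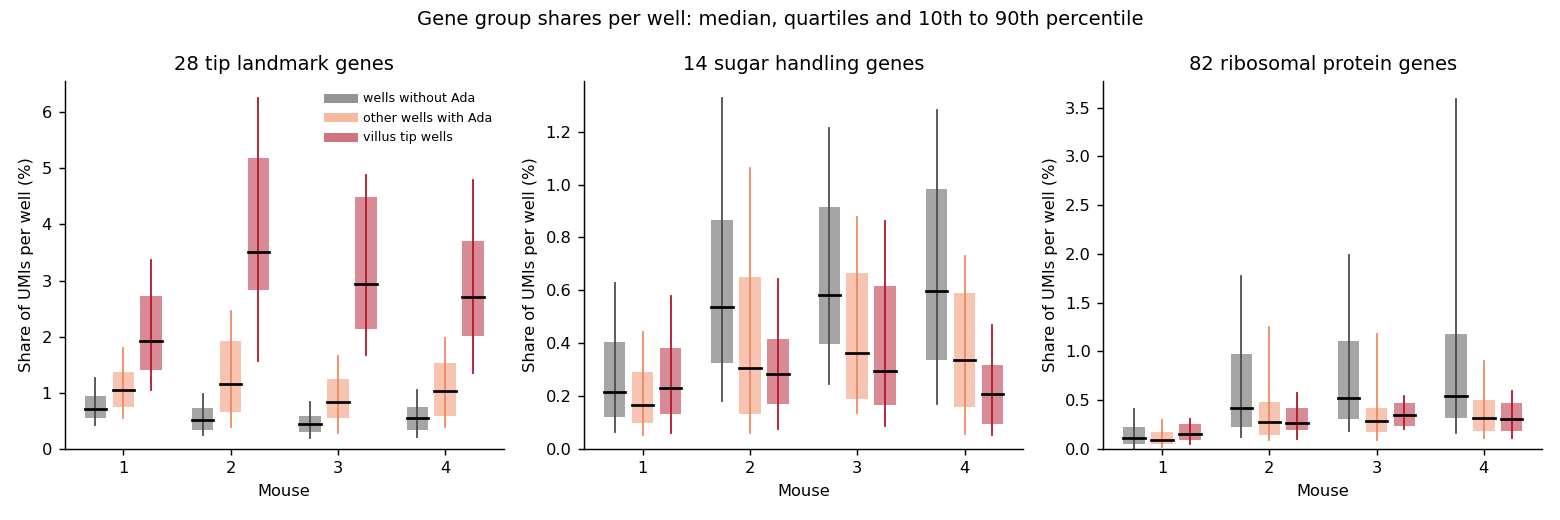
Share of UMIs per well (y axis, %) of 3 gene groups by mouse (x axis), with the median (black bar), quartiles (box) and 10th to 90th percentile (line), in wells without Ada (grey), other wells with Ada (orange) and villus tip wells (red). Tip landmark shares of red boxes stand apart from grey ones in every mouse, while ribosomal protein shares reach higher in the grey wells of every mouse.

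The 583 other wells with Ada lay between the groups for most genes. Of the 419 genes that rose, 386 had a mean CPM there between those of the 2 groups, and of the 454 that fell, 422. In each of the 4 mice taken alone, 217 of the rises and 113 of the falls lay between. In mouse 1 the sugar list summed to 2099 CPM and the ribosomal protein genes to 1307 CPM in these wells, below both groups. On the log scale the median rise had gone 32.0% of the way in these wells and the median fall 50.7%. Slc28a2 had a mean of 240.0 CPM there, between 21.8 and 1437 CPM, and Sis 495 CPM, between 1156 and 99.1 CPM. As these wells were set apart by the same genes, their order is a description.

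Tip wells are given by mouse and sort, among wells with at least 0.3% apolipoprotein. In mouse 1 tip wells were 136 of 641 (21.2%, interval 18.1 to 24.6%) on plates whose label gives no gate, and the 3 plates labelled EpcamLow_Cd24high or Epcam_Cd24low held no well with enough apolipoprotein. In mouse 2 they were 52 of 420 (12.4%, interval 9.39 to 15.9%) on plates labelled Epcam, 2 of 16 on other plates of 3 months and 3 of 32 on those of 4 months, both with no gate in the label, and 0 of 11 on plates labelled CD24, which allows a share of up to 28.5% by the same interval. In mouse 3 plates labelled onlyEpcam gave 23 of 238 (9.66%, interval 6.23 to 14.1%) and plates labelled CD45Epcam 3 of 139 (2.16%, interval 0.447 to 6.18%). In mouse 4 plates labelled onlyEpcam gave 87 of 427 (20.4%, interval 16.7 to 24.5%) and plates labelled CD54Epcam 24 of 192 (12.5%, interval 8.18 to 18.0%). Intervals are exact binomial and cover counting error only. As wells are no replicates of a sort and gates differ from mouse to mouse, differences between sorts were not tested. Restricted to plates labelled Epcam or onlyEpcam, which leaves mice 2, 3 and 4, 1111 genes passed (529 higher and 582 lower), and no gene called over all plates changed its sign.

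Pairs of cells from clump mice 1 to 5, also C57BL/6 males of 3 months on regular chow, numbered apart from the mice above and taken apart less fully, were sorted into groups by the same 4 genes. A well of pairs was used if it had over 500 UMIs, 200 genes or more and no more than 30% of UMIs from mitochondrial genes. The limit of at most 2 summed UMIs of the 8 marker genes held for pairs as well. Tip pairs numbered 37, 164, 172, 0 and 3 in mice 1 to 5, so only mice 1, 2 and 3 entered, and pairs without Ada 258, 462, 560, 130 and 27. A pair holds 2 cells, which need not both be at the tip. Of 3805 tested genes 581 rose (15.3%) and 621 fell (16.3%), and 1973 passed with the mouse as a block over mice 1 to 3. Over the 2694 genes tested in both, log2 differences correlated at Pearson 0.89 and Spearman 0.87. This is across genes, which are not independent replicates. Of 835 genes called in single cells and tested in pairs, 820 had the same sign in pairs and 558 passed there, of which 556 had the same sign. The 2 that did not were Gm10801 and the cytochrome gene Cyp4f13.

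In pairs Clca4a stood at 3986 ± 584 CPM (SD, n = 3 mice) in tip pairs and 98.6 ± 52.7 CPM (SD, n = 5 mice) in pairs without Ada, a log2 difference of 5.57 (adjusted p = 9.5e-07). Nt5e stood at 333 ± 183 CPM (SD, n = 3 mice) in tip pairs and 8.85 ± 15.9 CPM (SD, n = 5 mice) in pairs without Ada, a difference of 6.85 (adjusted p = 2.4e-06), and Slc28a2 at 1755 ± 97.8 CPM (SD, n = 3 mice) in tip pairs and 16.2 ± 20.4 CPM (SD, n = 5 mice) in pairs without Ada, a difference of 6.41 (adjusted p = 2.9e-06). Sis stood at 349 ± 218 CPM (SD, n = 3 mice) in tip pairs and 2123 ± 1429.7 CPM (SD, n = 5 mice) in pairs without Ada, a difference of -2.39 (adjusted p = 0.0072). Slc5a1 differed by -0.76 (adjusted p = 0.31) in pairs, and by -1.27 (adjusted p = 2.9e-08) with the mouse as a block, and Malat1 by 3.20 (adjusted p = 1.8e-04). Whether cells and pairs differ in these genes was not tested. Of the tip landmarks 27 of 28 rose and 0 fell in pairs (median 3.14), of the cell contact genes 23 of 30 rose and 0 fell, of the immediate early genes 11 of 21 rose and 1 fell, of the sugar genes 0 of 12 rose and 7 fell, of the ribosomal protein genes 0 of 80 rose and 65 fell (median -1.90) and of the respiratory chain genes 1 of 75 rose and 29 fell. Amino acid genes gave 1 rise and 4 falls among 20, and mid-villus landmarks 2 falls among 9. Interferon genes gave 7 rises and 0 falls among 17 (median 1.09), and chylomicron genes 10 rises and 0 falls among 28. Detoxifying enzymes gave 5 rises and 7 falls among 29, and transcription factors 7 rises and 1 fall among 20. Antimicrobial genes gave 0 rises and 7 falls among 11, and mitochondrially encoded transcripts 0 of either among 15. All tested genes gave 15.3% rises and 16.3% falls. With the mouse as a block over mice 1 to 3, 11 of 13 sugar, 65 of 76 respiratory chain, 8 of 20 amino acid and 5 of 9 mid-villus genes fell in pairs, and 1 sugar and 4 amino acid genes rose. Over all 4742 genes tested with that block, 933 rose and 1040 fell. Tip pairs had median mitochondrial shares of 3.48, 7.07 and 7.84% in mice 1 to 3 and pairs without Ada 6.95, 5.78, 7.90, 20.5 and 20.3% in mice 1 to 5. Mice 4 and 5, with the highest shares, are in the second group alone, and leaving each out gave 1296 and 1341 genes past the threshold.

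**Figure D5:**
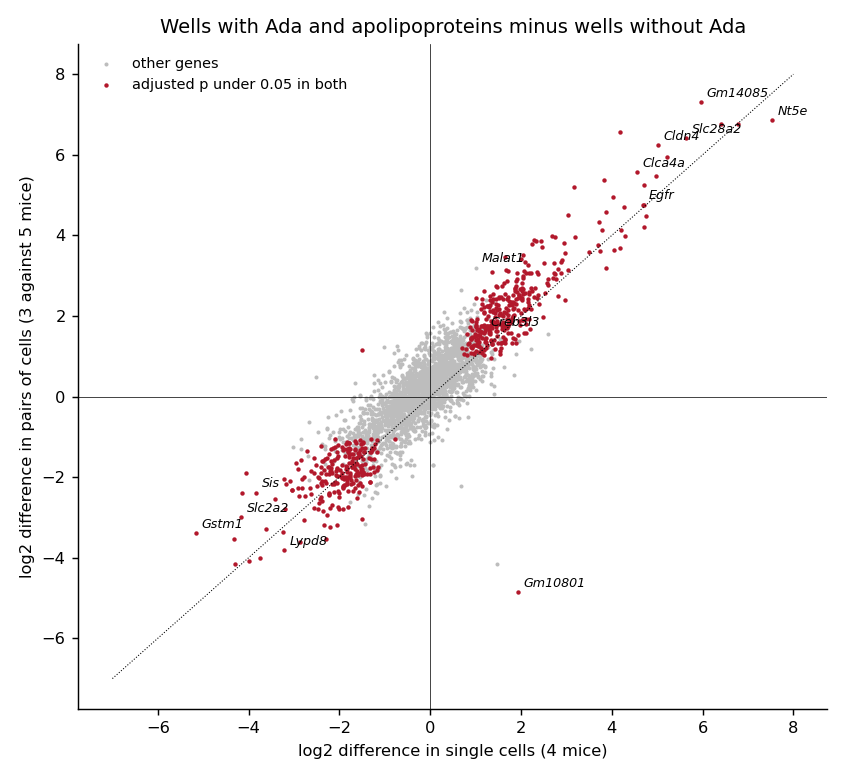
Log2 difference of each gene tested in both sets, in single cells (x axis) and in pairs of cells (y axis), each as wells with Ada and apolipoproteins minus wells without Ada; red genes had an adjusted p under 0.05 in both and the dotted line marks equal values. Red genes fill the upper right and lower left, with Gm10801 and Cyp4f13 outside them.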

How the data were processed

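Single cells of 4 mice and pairs of cells of 5 clump mice, all jejunum, were sequenced by MARS-seq, which reads the 3′ end of polyadenylated RNA. The authors deposited tables of UMI counts per gene and well, made from reads split with bcl2fastq 2.15.0.4 per the labels and mapped to GRCm38, with 1 column per well. The 1536 wells of clump mouse 6 were not used. Empty wells are not marked in the tables, so no background was subtracted, and free RNA remains in the counts. Wells were selected by the limits of the study for single cells or clumps and by the limits on the 8 markers, Ada and apolipoproteins. UMIs were summed per mouse and group, a mouse entering with at least 5 wells, and Ada, Apoa1, Apoa4 and Apob were left out of the sums.

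Sums were tested with edgeR 4.0.16 (R 4.3.3, filterByExpr, TMM, quasi-likelihood test, Benjamini-Hochberg over all tested genes, 0.05), with DESeq2 1.42.0 as an alternative, and exact binomial intervals from scipy 1.17.1. Permutation tests planned for the mitochondrial share and the genes per well are not given, since the limits on wells bound both. CPM are UMIs per 1000000 summed UMIs. On simulated data of the single-cell comparison 163 of 200 changed genes were recovered among 2964 genes fitted. Both groups come from the same animals, and deviations from the group means correlated at 0.413, 0.195, 0.190 and 0.300 within mice 1 to 4. The fit without the animal as a block is the one reported, as the methods of the study give none, and the block is an alternative. Other alternatives were the size factors, the low-count filter, each mouse left out, thinning to 500 UMIs, the limits on Ada, apolipoproteins, markers and mitochondrial share, the plates used and the clump size. Animals are the replicates, and wells are not.

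Genes were named by 3 rules: the 12 largest rises and the 12 largest falls with at least 50 CPM and the same direction in every mouse, the genes that chose the wells with 2 markers, and up to 4 of the most abundant genes of each list. Other genes of the lists, Egfr, Lama3 and the neighbours of Clca4a were named after their values were seen. Some genes that meet these rules are not reported here. The members, markers and gene lists were chosen with earlier results of these data known. Gene positions are from GENCODE M21 and promoter sequences from RefSeq on GRCm38.p6.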

Additional observations from a re-analysis of the deposited data

Results flagged for a closer look

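In 24 of 349 groups of 4 sums, the highest or lowest mouse lay far from the other 3 (by Dixon's 95% limit on the gap as a share of the range). Chance alone flags about 1 in 20 such groups. Among tip sums the high mouse stood apart for Gstm1 in mouse 3 (26.5 CPM, the others at 0), Ada in mouse 3 (8763 CPM, the others 4736 to 5277 CPM), Mep1b in mouse 3 (768 CPM, the others 281 to 334 CPM), Lgals4 in mouse 2 (1566 CPM, the others 1065 to 1125 CPM), Rpl28 in mouse 1 (162 CPM, the others 95.4 to 106 CPM), Defa24 in mouse 3 (119 CPM, the others 23.9 to 39.7 CPM), Klf5 in mouse 2 (47.7 CPM, the others 25.4 to 26.5 CPM) and Cyp3a25 in mouse 2 (71.5 CPM, the others 13.2 to 22.2 CPM). Ada is a gene of the rule. The low mouse stood apart for Pigr in mouse 2 (302 CPM, the others 841 to 878 CPM) and Epcam in mouse 1 (1767 CPM, the others 2519.7 to 2568 CPM). Among sums without Ada the high mouse stood apart for Oasl1 in mouse 1 (63.2 CPM, the others 20.2 to 26.8 CPM). The low mouse stood apart for Ces2e in mouse 1 (219.6 CPM, the others 476 to 485 CPM), Cyp3a11 in mouse 1 (71.5 CPM, the others 189 to 199.7 CPM), Atp5b in mouse 1 (304 CPM, the others 747 to 774 CPM), Lgals2 in mouse 1 (44.9 CPM, the others 134 to 142 CPM), Cldn15 in mouse 1 (88.2 CPM, the others 207 to 228 CPM) and S100a11 in mouse 1 (6.66 CPM, the others 10.5 to 11.1 CPM). Of the summed lists, brush border and identity genes had mouse 1 at 19580 CPM against 31187 to 32474 CPM, ribosomal proteins mouse 1 at 1682 CPM against 3139 to 3415 CPM, amino acid handling mouse 3 at 5242 CPM against 2813 to 3226 CPM, Paneth markers mouse 3 at 212 CPM against 66.3 to 79.5 CPM and blood and stroma markers mouse 1 at 26.5 CPM against 0 to 3.17 CPM in the tip sums. In the sums without Ada, sugar handling had mouse 1 at 2692 CPM against 6389 to 6903 CPM and enteroendocrine markers mouse 2 at 112 CPM against 31.4 to 43.3 CPM. The plates of mouse 1 that hold tip wells carry no gate label, unlike most plates of the other mice, and the part of this in its values was not tested.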

How the results depend on the processing

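For the single cells, DESeq2, its size factors, the animal as a replicate block, an Ada limit of 0.4%, no UMI of the 8 markers, comparison wells with at least 1% apolipoprotein, the plates left out for age or gate, the 4 genes of the rule kept in the library sizes and no filter on low counts left the count of called genes within 1.5 times. The counts were 863 with DESeq2 and 1127 with the block, under which 9 named genes newly passed (Malat1, Mep1b, B2m, Smad7, Ftl1, Slc34a2, Atp5d, mt-Nd4l and mt-Cytb) and no named call in single cells was lost. The count was 1520 at an adjusted p under 0.25, 82 of 743 with wells thinned to 500 UMIs, 111 of 228 at up to 20% mitochondrial UMIs, where no tip well of mouse 3 enters, and 456 of 1149 at up to 30%. The last limit and the scaling to total UMIs (641 genes, 71.1% of them higher) were chosen after the data were seen. Fewer genes could be tested with thinned or fewer wells. Leaving out 1 mouse gave 371 to 1278 genes. Called genes that changed sign numbered 1 with thinned wells and 1 at 20%, and 0 under the others. For the pairs the count was 1973 with the animal as a block, 2046 at 0.25, 591 with comparison pairs of at least 1% apolipoprotein (368 higher and 223 lower), 305 with thinned wells and 468 to 1341 without 1 mouse. With larger clumps in place of pairs 47 of 1357 genes passed, and 13 of 525 genes called in pairs had the other sign. With the animal as a block, 3 of 1193 genes called in pairs had the other sign. With total UMIs, 1037 genes passed in pairs (382 higher and 655 lower). Without a filter, 427 genes rose and 867 fell in single cells. The mitochondrial share differed by -2.26 points against wells of at least 1% apolipoprotein and by -4.50 to -2.68 points without 1 mouse, and genes per well by 48.4 genes at 1000 UMIs, 10.9 against wells of at least 1% apolipoprotein and 20.7 to 36.2 without 1 mouse. Over 143 named genes and 2503 values, 2303 kept direction and side of the threshold, 147 no longer passed, 52 newly passed and 1 turned, Adh6a at -1.46 (edgeR, adjusted p = 0.035) with at most 20% mitochondrial UMIs against 0.11. The causes were not tested. Depth is least in the tip sum of mouse 3, with 75545 UMIs, where many genes of under 50 CPM have few or no UMIs.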

Other observations

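Over 558 genes called in both single cells and pairs, Gm10801 and Cyp4f13 had opposite signs. Gm10801, a predicted gene, differed by 1.94 in single cells and -4.85 in pairs (edgeR, adjusted p = 0.034 and 0.036). Cyp4f13, a gene of the Cyp4f cytochrome family, differed by -1.51 and 1.15 (edgeR, adjusted p = 0.034 and 0.026). With the mouse as a block Gm10801 differed by 0.34 in pairs (edgeR, adjusted p = 0.33) and Cyp4f13 by 1.07 (edgeR, adjusted p = 0.0071). The difference between single cells and pairs was not tested for either gene.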
